A study of Arabidopsis thaliana with 6 samples.

Results

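The expression of 5 genes of Arabidopsis thaliana that encode cysteine- and histidine-rich C1-domain proteins (5 of the 13513 probe sets named with a single gene) was followed in shoots of the pvip1 pvip2 double mutant and of the wild type Col-0. The genes are AT2G44370, AT2G44380, AT2G17740, AT5G43520 and AT1G55390. They were matched by locus, each to 1 probe set that carries that gene alone, and no level filter was applied. They were chosen with the difference between these genotypes already known. Their values are therefore given as a description, and nothing is read from any test of them.

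A C1 domain is a small fold held together by cysteines and histidines that bind zinc. In animal protein kinase C it binds diacylglycerol, a lipid messenger. Plants carry a large family of proteins built from repeats of a divergent form of it, called DC1, and for most of them no biochemical role is established. Some members in other plants, such as pepper, have been connected with the response to pathogens.

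RNA came from seedlings 10 days after germination and was hybridised to 6 single-colour Affymetrix ATH1 arrays. The pvip1 pvip2 group holds 3 arrays and the Col-0 group 3 arrays, all labelled as biological replicates. PVIP genes encode PHD-finger proteins that act in meristems, and the labels do not name the mutant alleles. Col-0 seedlings lost their roots at harvest, and mutants were cut at the remnant of the hypocotyl so that both were wounded. No other treatment is named in the labels. In RNA of whole shoots, fewer cells of a type and less RNA per cell cannot be told apart.

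Several facts of the series bear on all values below. The PVIP gene OBE1 (AT3G07780) had log2 signals from 2.53 to 2.61 on the pvip1 pvip2 arrays, against 5.08 and 5.17 in Col-0 replicates 2 and 3. The array labelled Col-0 replicate 1 gave 2.42, at odds with its label for this gene, so results are also given without that array. Whether the probes lie in the disrupted part of the gene is not stated in the labels. The 3′ end of the GAPDH control exceeded its 5′ end by 0.553 to 0.907 on the log2 scale in the mutant arrays, by 0.968 and 1.08 in Col-0 replicates 2 and 1, and by 2.31 in Col-0 replicate 3. Of the 10 root markers, 3 had a probe set of their own. The log2 of their summed signal was 11.78 to 11.81 in the mutant and 10.01 to 10.09 in Col-0. PYK10, a beta-glucosidase abundant in roots, made up most of it and was higher in the mutant by 1.76 (SE 0.11, limma adjusted p = 9.249e-05). EXPA7 and EXPA18, expansins of root hairs, lay between 3.23 and 4.29 in the mutant and between 3.10 and 3.63 in Col-0. Of the 10 photosynthesis markers, 6 were measured, with a summed signal of 14.06 to 14.34 in the mutant and 14.48 to 14.65 in Col-0, and 1 of them, PORB, was lower by limma. On the array labelled Col-0 replicate 1, the markers called by limma, PYK10 and PORB, stood at 10.06 and 11.08. The other Col-0 arrays gave 9.98 to 10.01 and 11.17 to 11.41, and the mutant arrays 11.76 to 11.80 and 9.87 to 10.45, respectively. The part of tissue make-up in the differences below was not tested.

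AT2G44370 and AT2G44380 are direct neighbours on chromosome 2, with 0 annotated genes between them. AT2G44370 gave log2 signals of 7.64, 8.95 and 8.33 in pvip1 pvip2 replicates 1 to 3, against 3.40, 3.11 and 3.43 in the Col-0 arrays. Every mutant array lay far above every Col-0 array, with a gap of 4.21 between the nearest pair. The Col-0 signals lay under the 40th percentile of their own arrays (3.74 to 3.77), in the dense low end of the scale, while the mutant signals stood well above the array medians of 4.54 to 4.67. The mean was 8.31 ± 0.66 in the mutant and 3.31 ± 0.17 in Col-0 (SD, n = 3 each), a log2 difference of 4.99 (SE 0.31), or 31.9-fold as deposited.

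AT2G44380 gave 7.70, 8.57 and 8.59 as log2 signals in the mutant arrays, against 3.30, 3.26 and 3.28 in the Col-0 arrays. Its Col-0 values were almost constant, and the genotypes were separated by at least 4.40. The mean was 8.29 ± 0.51 in the mutant and 3.28 ± 0.02 in Col-0 (SD, n = 3 each), a log2 difference of 5.01 (SE 0.26), or 32.2-fold. The differences of the neighbours were thus 0.02 apart, far less than either standard error. On single arrays, AT2G44370 minus AT2G44380 ran from -0.26 to 0.38 in the mutant and from -0.14 to 0.15 in Col-0. Their probe sets carry the suffix for designs meant to detect 1 transcript. Whether related transcripts bind to both was not tested, because no probe or transcript sequence was used here.

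AT2G17740, also on chromosome 2 but not beside the pair, followed the same pattern. Its log2 signals were 8.21, 9.09 and 8.98 in the mutant arrays, against 4.73, 3.83 and 4.34 in the Col-0 arrays. The genotypes did not overlap, with a gap of 3.49, and the Col-0 signals lay nearer to the array medians than those of the pair. The mean was 8.76 ± 0.48 in the mutant and 4.30 ± 0.45 in Col-0 (SD, n = 3 each), a log2 difference of 4.46 (SE 0.30), or 22.1-fold. This was 0.53 below AT2G44370 and 0.55 below AT2G44380, and the ranges of 1 SE around the differences overlapped. Overlap of ranges of 1 SE is no test of equality, and whether AT2G17740 differs from the pair was not tested. AT2G44380, AT2G44370 and AT2G17740 ranked 17, 18 and 24 among the log2 differences of 22746 probe sets. Since the genes were chosen on this contrast, the ranks are a description only.

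AT5G43520, on chromosome 5, gave low signals in both genotypes. Its log2 signals were 3.09, 3.41 and 4.51 in the mutant arrays, against 2.82, 2.37 and 3.20 in the Col-0 arrays. The genotypes overlapped, since pvip1 pvip2 replicate 1 lay below Col-0 replicate 3, and pvip1 pvip2 replicate 3 stood apart from the other mutant arrays. The log2 difference was 0.87 (SE 0.36), from means of 3.67 ± 0.75 in the mutant and 2.80 ± 0.42 in Col-0 (SD, n = 3 each). Without pvip1 pvip2 replicate 3 it was 0.453, a change by more than 1.5 times.

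AT1G55390, on chromosome 1, gave the smallest difference. Its log2 signals were 3.25, 3.67 and 3.31 in the mutant arrays, against 2.90, 2.75 and 2.90 in the Col-0 arrays. The genotypes did not overlap, but the gap was only 0.35 and all 6 values lay under the 40th percentile of their arrays. The log2 difference was 0.56 (SE 0.14), from means of 3.41 ± 0.22 in the mutant and 2.85 ± 0.09 in Col-0 (SD, n = 3 each).

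**Figure D1:**
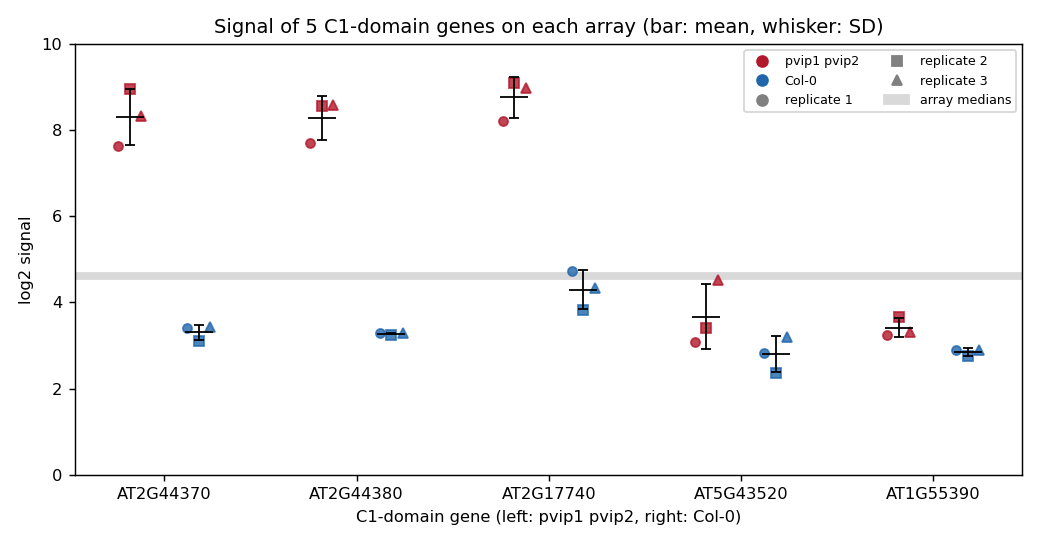
Log2 signal of the 5 C1-domain genes on each of the 6 arrays, pvip1 pvip2 to the left of Col-0 for each gene, with the mean and SD of 3 arrays and a grey band for the array medians. AT2G44370, AT2G44380 and AT2G17740 stand between 7.64 and 9.09 in the mutant, while AT5G43520 and AT1G55390 stay low in both genotypes.

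Across the 5 genes the log2 differences thus ran 5.01, 4.99, 4.46, 0.87 and 0.56, with a break of 3.59 between AT2G17740 and AT5G43520. The genotypes did not overlap, with the mutant higher, for 4 of 5 genes, against 13.4% of all probe sets. The limma fit called 4 of 5 higher at an adjusted p under 0.05, all but AT5G43520, against 6.85% of all probe sets. In the fit with the replicate block it called 5 of 5, against 19.2% of all probe sets called either way. The call of AT1G55390 was lost in 8 of 15 other settings: low values raised to the 40th percentile, the station as a block, the first station alone, and on leaving out mutant replicate 2 or 3 or any single Col-0 array. AT5G43520 was called in 2 of 15, the replicate block and the station as a block, while AT2G44370, AT2G44380 and AT2G17740 were called in 16 of 16. Nothing is read from these shares or from the calls in any setting, because this contrast led to the choice of the genes. On leaving out the array labelled Col-0 replicate 1, the differences were 5.04 for AT2G44370, 5.02 for AT2G44380, 4.68 for AT2G17740, 0.885 for AT5G43520 and 0.587 for AT1G55390. In that setting 3 of 5 were called higher, against 1316 of 22746 probe sets.

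The size of the differences depends on how low signals are treated. With 64 added to each linear signal before the logarithm, the log2 difference was 2.38 for AT2G44370, 2.36 for AT2G44380 and 2.57 for AT2G17740, so that the order of the 3 genes changed. In that setting AT5G43520 stood at 0.128 and AT1G55390 at 0.0691. These 3 genes stayed apart from the other 2 in that setting.

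**Figure D2:**
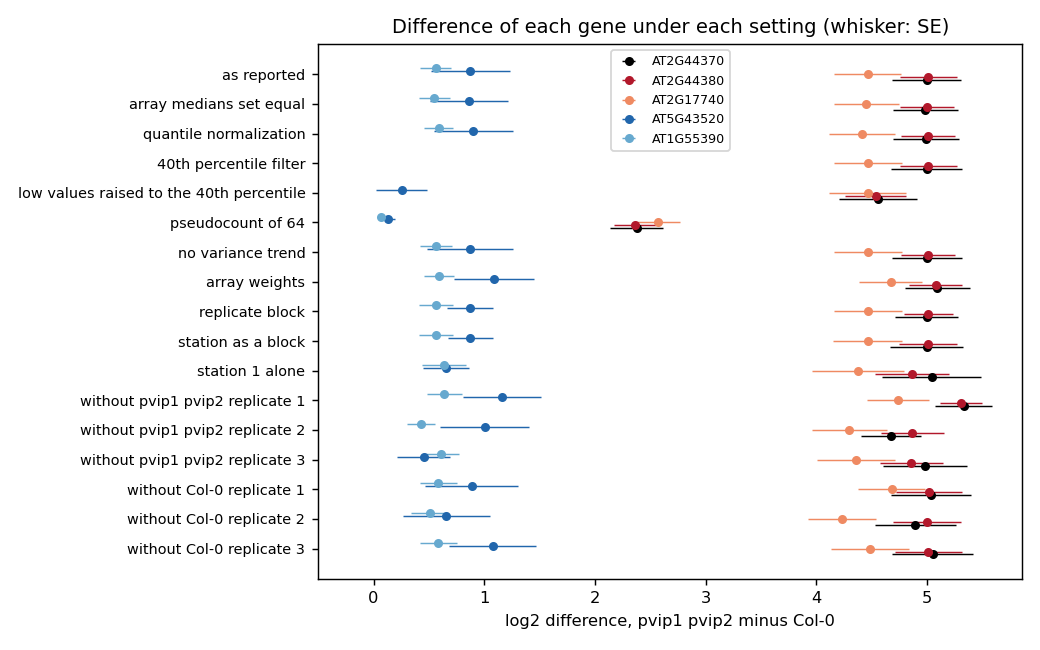
Log2 difference, pvip1 pvip2 minus Col-0, of each of the 5 genes with its SE, as reported and under each other setting. Adding 64 brings AT2G44370 to 2.38 and AT2G17740 to 2.57, while leaving out any single array keeps AT2G44370 between 4.67 and 5.33.

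The genes shared the lowest array within each genotype, though not the order of the other arrays. All 5 had their lowest mutant signal in pvip1 pvip2 replicate 1, which was the lowest mutant array for 60.6% of the probe sets called higher and for 44.1% of all probe sets. All 5 had their lowest Col-0 signal in Col-0 replicate 2, the lowest Col-0 array for 32.2% of the probe sets called higher and for 27.8% of all probe sets. AT2G44370 deviated from its mutant mean by -0.67 in replicate 1, AT2G44380 by -0.59, AT2G17740 by -0.55, AT5G43520 by -0.58 and AT1G55390 by -0.16. The highest mutant array was not shared: AT2G44370, AT2G17740 and AT1G55390 peaked in replicate 2, and AT2G44380 and AT5G43520 in replicate 3.

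Taken per replicate number, AT2G44370 stood higher in the mutant by 4.24, 5.84 and 4.90 for numbers 1, 2 and 3. AT2G44380 stood higher by 4.40, 5.32 and 5.31, and AT2G17740 by 3.49, 5.26 and 4.64. For these 3 genes number 1 had the smallest difference, and even that one was above 3. The arrays of number 3 were washed on the second fluidics station and the others on the first, so number 3 is also the value within the second station. On the first station alone the log2 difference was 5.04 for AT2G44370, 4.86 for AT2G44380 and 4.38 for AT2G17740.

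**Figure D3:**
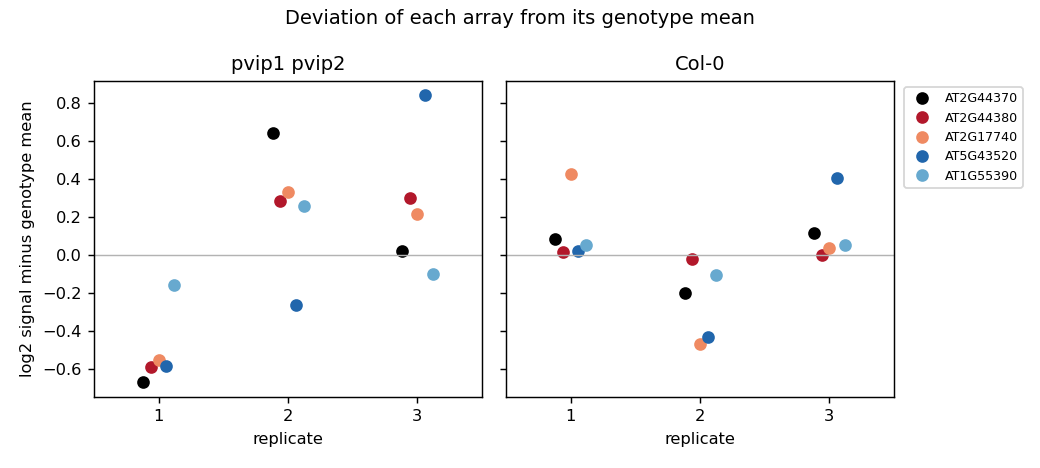
Log2 signal of each of the 5 genes minus the mean of its genotype, by replicate, for pvip1 pvip2 (left) and Col-0 (right). All 5 genes are lowest in pvip1 pvip2 replicate 1 among the mutant arrays and in Col-0 replicate 2 among the Col-0 arrays.

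The wider family was set beside the 5 genes. The tables used here describe no protein families, so a list of 129 further C1-domain loci was written from background knowledge after the values of the 5 genes had been seen. Of these, 94 have a probe set named with them alone, and the other 35 were not analysed here. In the limma fit 21 of the 94 were higher in the mutant (22.3%) and 1 was lower, against 6.85% higher and 6.51% lower among all probe sets. The median difference of the 94 was 0.05, against -0.05 over all 22746. Since 79 of the 94 had a mean under the 40th percentile of the probe-set means, this median describes mainly genes of low signal. The 15 at or above that level had a median of 1.81, with 10 called higher and 1 lower. Among all 13648 probe sets at that level, 1299 were called higher and 1207 lower. The level is a mean over all arrays, so a gene could reach it through its mutant signals, and nothing is read from the 15. On leaving out the array labelled Col-0 replicate 1, the counts were 16 higher and 1 lower, and with the low values raised to the 40th percentile of all values they were 7 higher and 0 lower. Leaving out pvip1 pvip2 replicate 3 gave 13 higher and 0 lower, leaving out Col-0 replicate 2 gave 13 higher and 1 lower, and the first station alone gave 9 higher and 0 lower. Calls fell over the whole array too. Of all 22746 probe sets, 1316, 725, 1078, 994 and 634 were higher in these settings, in the order given, against 1559 with all arrays as deposited.

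AT2G27660 rose most among the other family genes. It had log2 signals of 6.72, 7.04 and 6.91 in the mutant, against 3.43, 3.41 and 3.66 in Col-0, a difference of 3.39 (SE 0.18, limma adjusted p = 6.158e-05). The genotypes were separated by 3.06, and the mutant arrays were close to each other. AT2G42060 had 5.78, 5.16 and 6.14 in the mutant, against 2.54, 3.12 and 2.72 in Col-0, a difference of 2.90 (SE 0.28, limma adjusted p = 0.0004615). AT3G50010 rose by 2.79 (SE 0.29), AT3G45530 by 2.67 (SE 0.31) and AT2G02680 by 2.65 (SE 0.23), with limma adjusted p values of 0.000644, 0.00105 and 0.000336. For these 3 genes too, pvip1 pvip2 replicate 1 was the lowest mutant array, at 4.95, 5.27 and 5.05.

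AT5G42840 rose by 2.37 (SE 0.28, limma adjusted p = 0.00117) from a Col-0 mean of 3.79, and AT4G01910 by 1.70 (SE 0.21, limma adjusted p = 0.00159) from 3.87. AT3G07000, AT2G21850 and AT2G02630 rose by 1.81, 1.67 and 1.65, with limma adjusted p values of 0.005, 0.00957 and 0.00521. The calls of these 3 genes were lost when low values were raised to the 40th percentile (adjusted p = 0.0612, 0.0904 and 0.187), and that of AT2G21850 also on the first station alone (0.126). The other 11 family genes that rose did so by 0.36 to 1.31.

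None of the 94 reached the differences of AT2G44370, AT2G44380 or AT2G17740 (0 of 94). Above AT5G43520 there were 15 of the 94, and above AT1G55390 there were 21. Among the log2 differences of all 22746 probe sets, AT5G43520 and AT1G55390 ranked 1384 and 2287. AT5G40590, named after its values were seen, had 3.48, 7.07 and 4.47 in the mutant, against 2.65, 3.04 and 2.90 in Col-0. Its difference of 2.14 (SE 0.75) was not called (limma adjusted p = 0.103, or 0.0259 to 0.583 over the settings), and without pvip1 pvip2 replicate 2 it was 1.11. The single family gene that fell, also named after its values were seen, was AT1G62030. It had 5.43, 4.36 and 5.13 in the mutant, against 6.39, 5.94 and 6.42 in Col-0, a difference of -1.28 (SE 0.29, limma adjusted p = 0.0235). That call was lost on leaving out the array labelled Col-0 replicate 1 (0.0592), Col-0 replicate 3 (0.0791) or either of the mutant replicates 2 (0.0513) and 3 (0.0569), on the first station alone (0.157) and with low values raised (0.114).

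The family genes that rose started from low signals, as did nearly all of the listed genes. Of the 21, 20 had a Col-0 mean under 3.81, the 40th percentile of the probe-set means, against 33.3% of all probe sets called higher. The mutant mean reached that level for 13 of the 21. As for the 5 genes, pvip1 pvip2 replicate 1 was often the lowest mutant array, in 16 of the 21 (76.2%), against 60.6% of all probe sets called higher. Col-0 replicate 2 was the lowest Col-0 array in 8 of the 21 (38.1%), against 32.2% of all probe sets called higher. Over the whole list, 79 of the 94 had a mean under that level across all arrays. In Col-0 alone, only AT4G02540, AT1G62030, AT2G19650, AT2G21830 and AT4G01910 had a mean at or above it. The low start was therefore not particular to the genes that rose.

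**Figure D4:**
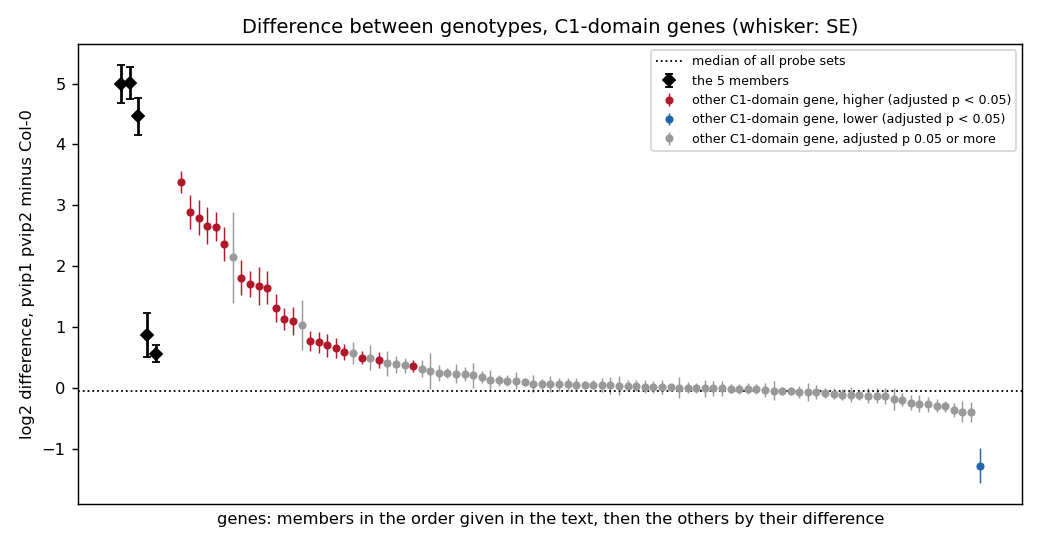
Log2 difference, pvip1 pvip2 minus Col-0, with its SE, for the 5 genes (black diamonds, in the order AT2G44370, AT2G44380, AT2G17740, AT5G43520 and AT1G55390) and for 94 other C1-domain genes sorted by difference. The highest of the others, AT2G27660 at 3.39, lies below the first 3 diamonds, and the bulk of the family lies near the dotted median of all probe sets.

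Position within the family was compared next. In the order of the gene table, 13 further places hold 2 listed C1-domain genes side by side with both measured. At 0 of the 13 were both genes higher, at 2 of them 1 gene was higher, and at 11 neither was called. Among all probe sets 6.85% were called higher. With so few places, the counts in this paragraph are not read as a contrast with the pair. At the first of these 2 places, AT2G02680 rose by 2.65 while AT2G02690 stood at -0.26 (limma adjusted p = 0.276). At the second, AT5G54020 rose by 1.09 (limma adjusted p = 0.017) and AT5G54030 stood at 0.02. Listed genes that lie close but not side by side both rose at other places. AT4G01920, which 1 gene separates from AT4G01910 (1.70, limma adjusted p = 0.00159), rose by 0.78 (limma adjusted p = 0.0176). AT5G54040, near AT5G54020, rose by 0.75 (limma adjusted p = 0.0232). Counting protein-coding genes alone, a choice made after the data were seen, gave 18 such places, with both genes higher at 0 of them and 1 gene higher at 5. No value here makes the joint difference of AT2G44370 and AT2G44380 particular to them, since the pair was chosen on this contrast. Near AT2G17740 the listed genes AT2G17590 and AT2G17600, 18 and 17 genes away, stood at -0.01 and 0.04. AT1G55430 and AT1G55440, 4 and 5 genes from AT1G55390, stood at 0.01 and -0.13.

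The genes that surround the C1-domain genes were examined regardless of family, 10 on either side of each place. Of 80 such genes, 23 have a probe set of their own. Limma called 4 of these 23 higher (17.4%) and 0 lower, against 6.85% higher and 6.51% lower among all probe sets. At an unadjusted p under 0.05, 5 were higher and 2 lower, against 2709 higher and 3462 lower of all 22746 probe sets. In the fit with a block for the replicate number, the counts were 5 higher and 2 lower, against 19.2% of all probe sets called. With low values raised, and on the first station alone, 2 were higher and 0 lower. Of all 22746 probe sets, 725 and 634 were called higher in these settings.

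Around the pair, 7 of 20 genes were measured. AT2G44360, the gene next to AT2G44370, stood at 0.46 (SE 0.23, limma adjusted p = 0.235), with means of 7.17 ± 0.16 in the mutant and 6.71 ± 0.40 in Col-0 (SD, n = 3 each). The means of this neighbour were thus much closer together than those of the pair. BGLU28 (AT2G44460), a beta-glucosidase 9 genes away, rose by 1.26 (SE 0.30, limma adjusted p = 0.0279). Its call was lost without Col-0 replicate 2 (0.104) or 3 (0.0594), on the first station alone (0.101), with 64 added (0.0766) and with low values raised (0.733). The other measured neighbours of the pair stood between -0.38 and 0.61 and were not called.

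Near AT2G17740, AT2G17710 and AT2G17760, 4 and 2 genes away, rose by 1.63 (SE 0.21, limma adjusted p = 0.002) and 1.16 (SE 0.16, limma adjusted p = 0.00274). AT2G17710 averaged 6.91 ± 0.29 in the mutant and 5.27 ± 0.24 in Col-0 (SD, n = 3 each). AT2G17760 averaged 6.84 ± 0.10 in the mutant and 5.68 ± 0.09 in Col-0 (SD, n = 3 each). Both differences were smaller than that of AT2G17740. Near AT1G55390, AT1G55450, 6 genes away, rose by 1.60 (SE 0.31, limma adjusted p = 0.0123), a call lost on the first station alone (0.104) and with low values raised (0.0868). None of the 6 measured neighbours of AT5G43520 was called by limma, with differences from -0.54 to 0.30 and the lowest adjusted p at 0.0601. At an unadjusted p under 0.05, 1 of the 6 was lower, AT5G43460, against 3462 of all 22746 probe sets.

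**Figure D5:**
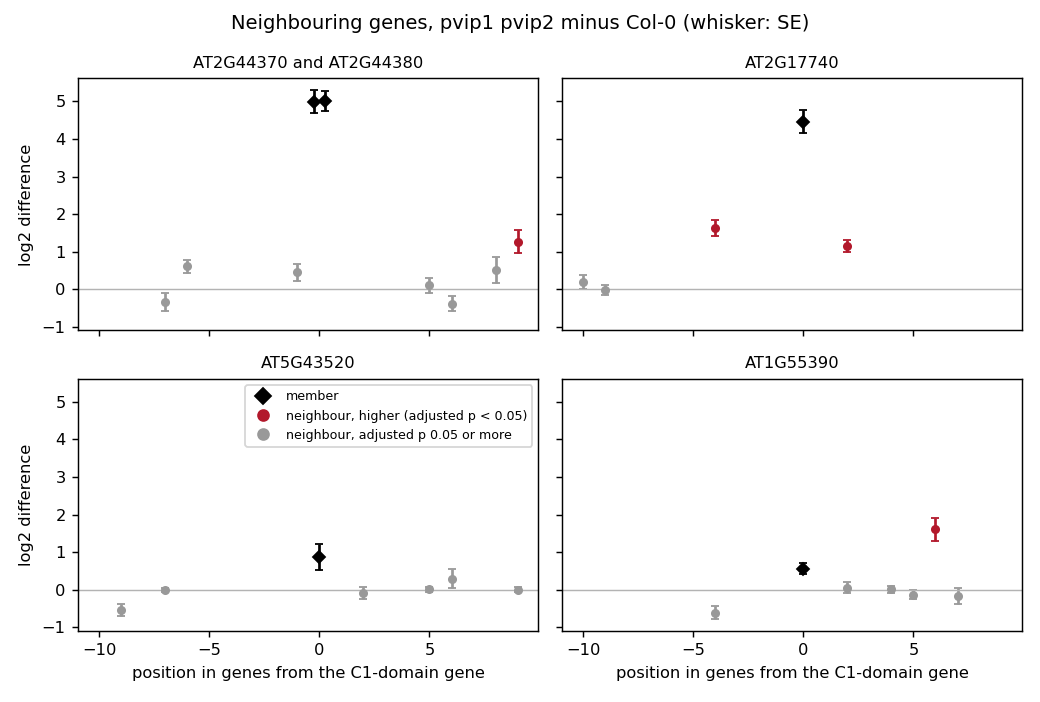
Log2 difference, pvip1 pvip2 minus Col-0, with its SE, of the C1-domain genes (black diamonds) and of the measured genes within 10 positions on either side, by position in genes. The diamonds of AT2G44370, AT2G44380 and AT2G17740 stand at 4.46 or above, while no measured neighbour exceeds 1.63.

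Finally, the genes whose pattern over the 6 arrays was most like that of the pair were found. Likeness was the root mean square difference of log2 signals after each probe set was centred on its own mean, so it reflects mainly the size of the difference between genotypes. Nearest to AT2G44370 among 13512 probe sets was AT2G44380, at 0.21, followed by AT5G64120, a class III peroxidase, at 0.22 and AT4G01700, a chitinase, at 0.26. Nearest to AT2G44380 was AT5G64120, at 0.11, followed by AT2G44370 at 0.21 and the leucine-rich repeat receptor kinase gene AT1G51850 at 0.26. AT2G17740 ranked 7 for AT2G44370 and 6 for AT2G44380. AT5G43520 and AT1G55390 ranked 702 and 1028 for AT2G44370. AT5G64120 averaged 11.67 in the mutant and 6.83 in Col-0, so it reached a like difference of 4.84 from a Col-0 signal well above the array medians.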

How the data were processed

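The deposited table holds a log2 value per probe set and array. The authors' summarising, background correction and normalization are not given in the sources used here, and GCOS is named without a version in the submitters' processing notes. The base of the logarithm follows from the highest values. There are no detection calls, and the number of arrays limits the precision (median SE of a difference 0.179).

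Of 22810 probe sets, 64 controls were left out. Names came from the platform annotation (13513 with 1 gene, 503 with several, 8730 unnamed here) and the TAIR10.1 gene table, which held 13436 of the 13513 and gave gene order only. No sequences or coordinates are used.

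All 22746 others were fitted with limma 3.58.1 in R 4.3.3 (trend, two-sided), without a level filter, with 0.05 as the limit for p values adjusted by Benjamini-Hochberg. The script was tested on simulated data. The members and lists were chosen with earlier results of these data known. The planned annotation rule for further C1-domain loci found 0, so a list was written afterwards. Named were the 5 genes, up to 10 called family genes by size of change, called neighbours (up to 6 at the pair, 3 elsewhere) and the 3 nearest patterns. Deviations from genotype means correlated between arrays of the same replicate number at r = 0.539, 0.311 and 0.121 across probe sets. Between arrays of unlike number r ran from -0.413 to 0.228. The 0.228, of mutant replicate 2 with Col-0 replicate 3, exceeds the 0.121 of number 3. Pairing is thus not established for every number, and a fit with the number as a block was an alternative only. Other alternatives were normalization, low values, variance model, array weights, fluidics station and leaving out arrays. P values measure the spread among samples labelled biological replicates.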

Additional observations from a re-analysis of the deposited data

How the results depend on the processing

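With 64 added to the signals, the log2 differences were 2.377 for AT2G44370, 2.361 for AT2G44380, 2.572 for AT2G17740, 0.1284 for AT5G43520 and 0.0691 for AT1G55390. With low values raised to the 40th percentile they were 4.537 for AT2G44380 and 0.2544 for AT5G43520, and AT1G55390 had no value left, since all its signals lay at that floor. Leaving out each array in turn gave 4.672 to 5.328, 4.858 to 5.303, 4.23 to 4.738, 0.4525 to 1.163 and 0.432 to 0.6395 in the order of the first sentence. No difference changed sign in the settings that gave a value. Of all probe sets 3040 were called, 1379 with low values raised, 946 on the first station alone, and 1773 to 2800 with an array left out. With the level filter 2803 of 13648 were called, and with the replicate block 4369 of 22746. Of the 94 other family genes 22 were called, 11 of the 15 above the level filter at the 40th percentile, 7 with low values raised, 9 on the first station alone, and 13 to 23 with an array left out. The level filter uses a mean over all arrays, so a gene could pass it through its mutant signals. Nothing is read from the 11 of 15. Of the neighbours 4 were called, 7 with the replicate block, 2 with low values raised, 2 on the first station alone, and 3 to 5 with an array left out. With the level filter 6 of 13 neighbours were called. With the replicate block 25 of the 94 were called, and no call of the 10 named family genes changed. The level filter removed AT5G43520 and AT1G55390. Fluidics modules with even numbers held the mutant arrays and those with odd numbers the Col-0 arrays, so module and genotype cannot be told apart. Some settings hold fewer arrays or probe sets and others hold all of them. The cause of each shift was not tested.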
